A study of Populus trichocarpa with 12 samples.

Results

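The 4 loci described here are the SND1/NST type NAC genes of black cottonwood (Populus trichocarpa), WND1A (Potri.011G153300), WND1B (Potri.001G448400), WND2A (Potri.014G104800) and WND2B (Potri.002G178700). They were taken by locus identifier from a count table of 41335 loci, and all 4 were found and tested. RNA was sequenced from developing xylem, the young wood that is laying down its walls, of 9 transgenic lines that overexpress the microRNA miR397a from the CaMV 35S promoter and of 3 wild-type trees. All 12 trees had the Nisqually-1 background and were grown in a greenhouse. Each line is 1 transgenic individual, named below by its line number (1, 3, 5, 6, 9, 10, 17, 26 and 30). The CaMV 35S promoter is active in most plant cells, so expression of the transgene is not restricted to wood fibres. The treatment text of the labels names the transgene for every sample, wild type included, and the groups follow the titles and the genotype label.

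NAC proteins are plant transcription factors that bind DNA through a conserved domain near their amino terminus. In Arabidopsis, SND1 and its relatives NST1 and NST2 switch on secondary wall formation, SND1 and NST1 chiefly in fibres, and they act through MYB factors on the genes for cellulose, xylan and lignin synthesis. The poplar genes of this type, named WND for wood-associated NAC domain, are expressed in developing wood, and they occur as copies from a whole-genome duplication, which gives the WND1A and WND1B pair and the WND2A and WND2B pair. The known targets of miR397a are laccase mRNAs, whose enzymes act at a late step of lignin formation in the wall. The comparison of lines with wild type addresses whether transcripts of these upstream regulators differ in wood in which that late step was targeted.

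Reads summed over loci ran from 8015226 to 34112839 in the lines and from 12580140 to 23611857 in wild type. Of 26298 loci tested, 24 were called different between lines and wild type (edgeR, adjusted p below 0.05). A stretch of 9 loci on chromosome 5 held 1.14% to 18.7% of the reads of a line, and 18.9%, 2.80% and 16.0% in wild-type trees 1, 2 and 3. Neither the file nor the reference gene table names the loci, so markers of xylem, phloem or other tissues could not be checked, and the miR397a precursor was not analysed here.

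Transcripts of all 4 SND1/NST type loci were present in every tree. None of the 4 was called between lines and wild type, against a background of 0.0913% of tested loci called, and 1 of the 4 (WND1B) had an unadjusted p below 0.05, against 11.0% of tested loci. At none of the 4 were the values of lines and wild type free of overlap, which was the case for 2.95% of tested loci. In whole xylem, fewer cells of a type and less RNA per cell cannot be told apart. The copies of a pair are related in sequence, and no source used here states how reads that align to several places were counted, so a value for a single copy may include reads of its partner. Levels are given as CPM, read counts relative to library size, with TMM scaling for differences in library composition. They are not divided by transcript length, so levels are compared between trees and never between loci.

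WND1A, on chromosome 11, had a lowest, median and highest level of 77.2, 96.7 and 105 CPM in the lines, against 96.0, 102 and 95.2 CPM in wild-type trees 1, 2 and 3. All 3 wild-type trees lay within the range of the lines, and the lowest levels were those of lines 26, 10 and 3. The lines averaged 93.8 ± 9.36 CPM (SD, n = 9) and the wild-type trees 97.7 ± 3.59 CPM (SD, n = 3). Fitted with edgeR, the log2 fold change was -0.06 with an SE of 0.09 (adjusted p = 0.837). The 95% interval of the fold change ran from 0.837 to 1.10.

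WND1B, the copy of WND1A on chromosome 1, had a lowest, median and highest level of 85.4, 91.1 and 109.6 CPM in the lines, against 89.0, 79.2 and 79.1 CPM in wild-type trees 1, 2 and 3. Wild-type trees 2 and 3 stood below every line, while wild-type tree 1 stood above 4 of the 9 lines (6, 9, 26 and 1). The lines averaged 93.7 ± 8.17 CPM (SD, n = 9) and the wild-type trees 82.4 ± 5.65 CPM (SD, n = 3). Fitted with edgeR, the log2 fold change was 0.18 with an SE of 0.09 (unadjusted p = 0.04999, adjusted p = 0.453). The 95% interval of the fold change ran from 1 to 1.29, and WND1B did not pass the test after adjustment over all tested loci.

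WND2A, on chromosome 14, had a lowest, median and highest level of 6.86, 9.25 and 10.1 CPM in the lines, against 9.57, 9.39 and 10.9 CPM in wild-type trees 1, 2 and 3. Lines 10, 3 and 26 stood below all other trees, and wild-type tree 3 stood above every line. The lines averaged 8.79 ± 1.21 CPM (SD, n = 9) and the wild-type trees 9.94 ± 0.80 CPM (SD, n = 3). Fitted with edgeR, the log2 fold change was -0.18 with an SE of 0.13 (adjusted p = 0.617). The 95% interval of the fold change ran from 0.732 to 1.07.

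WND2B, the copy of WND2A on chromosome 2, is known to restore fibre walls when expressed in the Arabidopsis snd1 nst1 mutant. It had a lowest, median and highest level of 6.77, 10.7 and 13.8 CPM in the lines, against 12.5, 11.3 and 9.47 CPM in wild-type trees 1, 2 and 3. Line 10 was the lowest and line 1 the highest, and all 3 wild-type trees lay between them. The lines averaged 10.7 ± 2.05 CPM (SD, n = 9) and the wild-type trees 11.1 ± 1.52 CPM (SD, n = 3). Fitted with edgeR, the log2 fold change was -0.04 with an SE of 0.17 (adjusted p = 0.942). The 95% interval of the fold change ran from 0.756 to 1.24, the widest ratio of upper to lower bound of the 4.

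**Figure D1:**
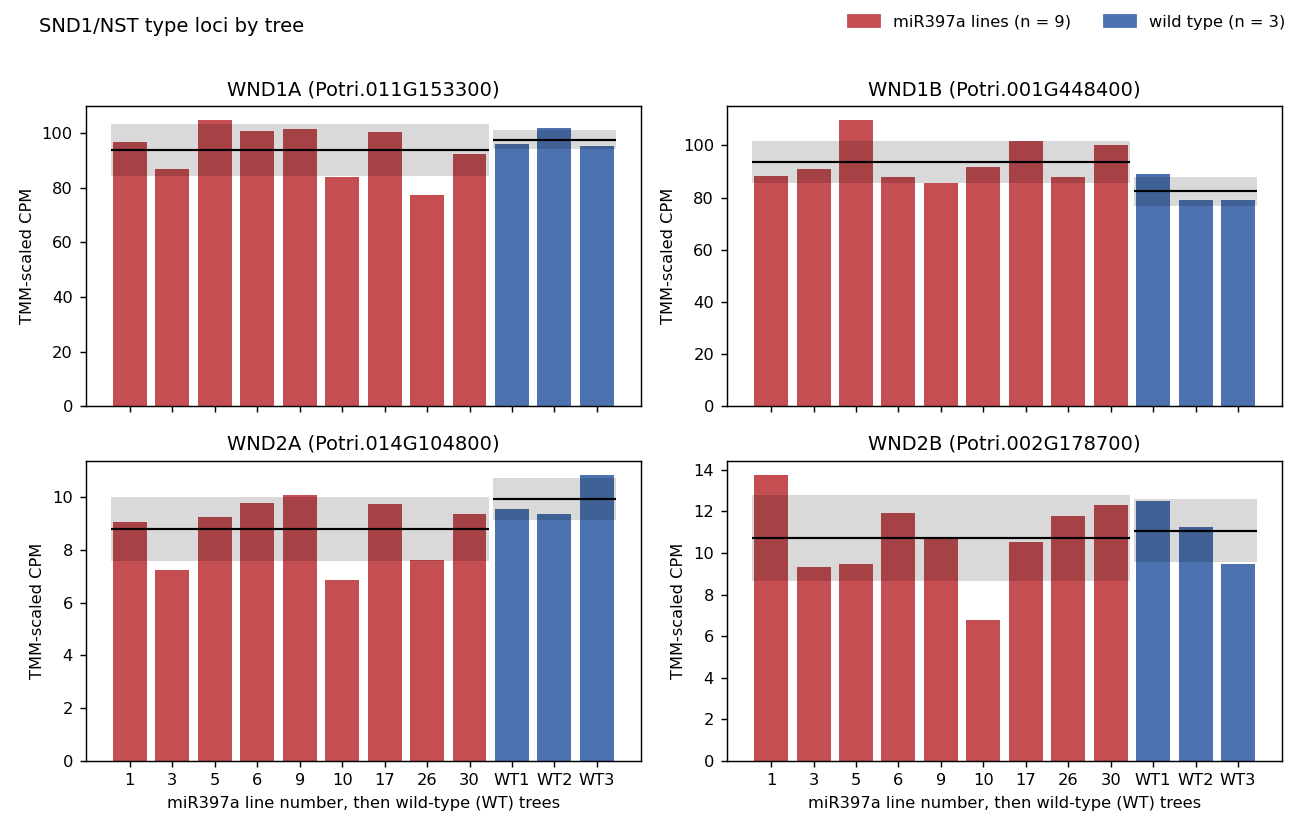
Level of each SND1/NST type locus (TMM-scaled CPM, vertical axes from 0) in the 9 miR397a lines, by line number, and in the 3 wild-type (WT) trees. Black lines are group means and grey bands 1 SD; wild type lies within or beside the spread of the lines at all 4 loci, with WND1B of WT2 and WT3 at 79.2 and 79.1 CPM below every line.

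The depth of the libraries bears differently on the 2 pairs. WND1A had 917 to 2754 reads per tree and WND1B 911 to 2386, so counting alone gives an error of 2.47% and 2.54% at their median counts. The spread between the lines was larger, with coefficients of variation of 9.98% for WND1A and 8.72% for WND1B. WND2A had 81 to 254 reads and WND2B 83 to 320, with a counting error of 8.03% and 7.39% at the median count and coefficients of variation between the lines of 13.8% and 19.1%. Over the 23877 tested loci with a mean of at least 1 CPM, the median coefficient of variation between the lines was 15.1%. From the lowest to the highest line, levels differed 1.36-fold for WND1A, 1.28-fold for WND1B, 1.47-fold for WND2A and 2.03-fold for WND2B.

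The summed level of the 4 loci was close in both groups. Its lowest, median and highest value was 184, 208 and 233 CPM in the lines, against 207, 202 and 195 CPM in wild-type trees 1, 2 and 3. The log2 difference of lines minus wild type was 0.04 (exact permutation test over 220 splits of the trees into 9 and 3, two-sided, p = 0.55), with a 95% interval, from the shifts that the same test did not refuse, of -0.12 to 0.19. The smallest p that these splits allow is 0.00455. This was 1 of 7 sums and ratios tested in this way, and p adjusted over the 7 is given below where an unadjusted p was under 0.05.

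Ratios of read counts within a tree do not depend on the scaling of the libraries, and they show how the copies of a pair stood to each other. The reads of WND1A divided by those of WND1B came to 0.880, 0.956 and 1.19 as the lowest, median and highest value in the lines, against 1.08, 1.29 and 1.203 in wild-type trees 1, 2 and 3. Wild-type trees 2 and 3 lay above every line, 6 lines lay below every wild-type tree, and lines 1, 6 and 9 overlapped with wild type. In log2 the ratio averaged -0.00015 ± 0.15 in the lines (SD, n = 9) and 0.25 ± 0.13 in wild type (SD, n = 3), a difference of -0.25 (95% interval -0.47 to -0.015; exact permutation test, two-sided, p = 0.0409). Adjusted over the 7 sums and ratios this p was 0.286, so the shift of the WND1 pair towards WND1B in the lines did not hold after correction.

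The shift of the WND1 pair kept its direction when any 1 tree was left out, with log2 differences from -0.31 to -0.19. Its p did not stay under 0.05 in all of these runs, which have fewer splits of the trees. The unadjusted p was above 0.05 when line 3, 5, 10, 17, 26 or 30 or wild-type tree 2 or 3 was left out, with a largest exact permutation p of 0.2 without wild-type tree 2. Among the 6 trees with fewest reads on the chromosome 5 stretch (5 lines, 1 wild-type tree) the log2 difference was -0.34, and among the 6 with most reads there (4 lines and wild-type trees 1 and 3) it was -0.22. Over the 9 lines the ratio had r = -0.18 with that share and r = -0.29 with the library total (exact permutation p = 0.642 and 0.447; Spearman rho = -0.33 and -0.43, exact permutation p = 0.385 and 0.250; adjusted over 4 relations 0.733 for both r and 0.514 for both rho). When lines 26 and 10, which had the highest shares among the lines, were left out, the first r was 0.38. When lines 5 and 26, at the extremes of library total, were left out, the second was -0.39.

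The WND2 pair gave no difference beyond the spread. The reads of WND2A divided by those of WND2B came to 0.647, 0.824 and 1.01 as the lowest, median and highest value in the lines, against 0.767, 0.833 and 1.15 in wild-type trees 1, 2 and 3. The log2 difference of lines minus wild type was -0.12 (95% interval -0.48 to 0.28; exact permutation test, two-sided, p = 0.491). The reads of the WND1 pair divided by those of the WND2 pair ran from 8.09 in line 1 to 12.9 in line 10, with 8.37, 8.75 and 8.56 in wild-type trees 1, 2 and 3. The lines thus spread over a range that held all 3 wild-type trees near its lower end, with 6 lines above every wild-type tree and 1 below them all. The log2 difference was 0.18 (95% interval -0.11 to 0.50; exact permutation test, two-sided, p = 0.218).

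In P. trichocarpa an intron-retaining splice form of a gene of this family is known, whose protein lacks part of the factor's activity. The table lists 1 transcript model each for WND1A, WND1B and WND2A, so splice forms of these loci could not be told apart in it. For WND2B it lists a pair of models. Model 2 of WND2B had 1670 reads where model 1 had 1783 in the lines, and 515 where model 1 had 555 in wild type. Model 2 was below model 1 in every tree, by 6 to 21 reads in the lines and by 16, 17 and 7 reads in wild-type trees 1, 2 and 3.

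The models of a locus share reads, and the ratio of model 2 to model 1 is an index of reads outside their shared part, not a share of transcripts. It was 92.2% to 95.9% in the lines, against 88.7%, 94.4% and 93.6% in wild-type trees 1, 2 and 3. The log2 difference of lines minus wild type, with 0.5 added to each count, was 0.024 (95% interval -0.015 to 0.060; exact permutation test, two-sided, p = 0.25). Fitted as rows of their own among 55411 models, WND2B model 1 had a log2 fold change of -0.05 ± 0.17 and model 2 of -0.02 ± 0.16 (SE; edgeR adjusted p = 0.932 and 0.966).

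**Figure D2:**
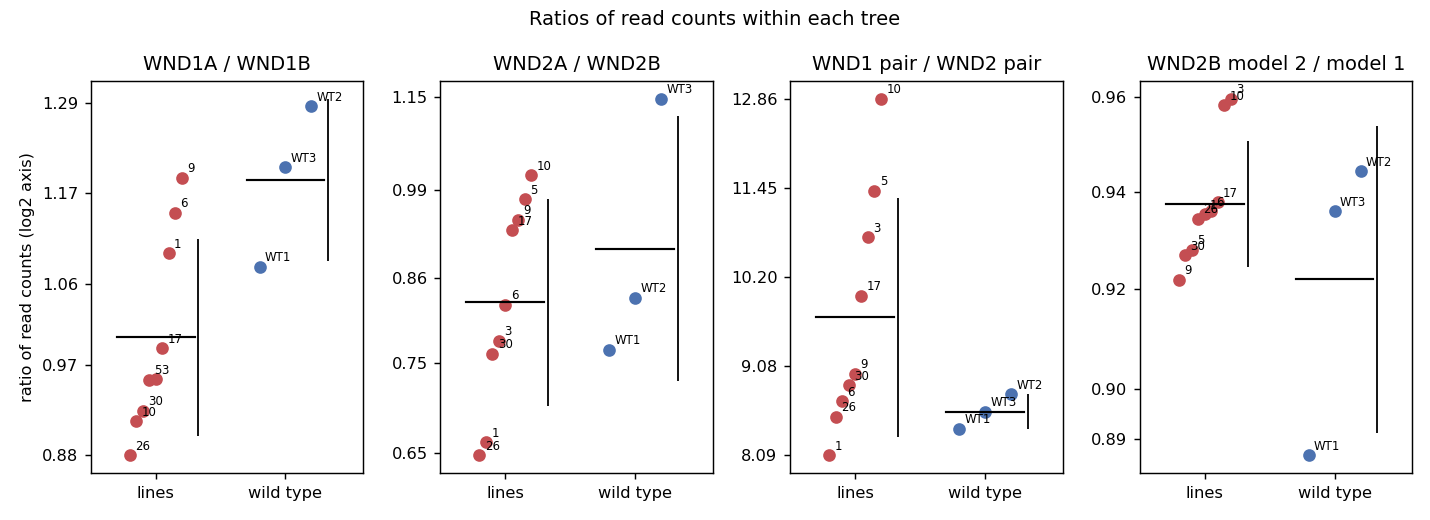
Ratio of read counts within each tree (log2 axes, which do not start at 0), with points labelled by line number or wild-type (WT) tree, horizontal bars at the group mean of log2 ratios and vertical bars of 1 SD. The WND1A to WND1B ratio is below every wild-type tree in 6 of the 9 lines, and 1 wild-type tree lies within the range of the lines. The WND1 pair to WND2 pair ratio is above every wild-type tree in 6 of the 9 lines, with all 3 wild-type trees within their range.

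Whether the 4 loci rose and fell together from tree to tree was examined by correlation of log2 CPM. Over the 9 lines, WND1A and WND2A, members of different pairs, had the highest correlation of the 6 combinations (Pearson r = 0.85, exact permutation p = 0.00736, adjusted over the 6 p = 0.0441; Spearman rho = 0.75, exact permutation p = 0.0255, adjusted p = 0.153). Over all 12 trees r was 0.78 (permutation p = 0.00475, adjusted p = 0.0285) and rho 0.51 (permutation p = 0.0935, adjusted p = 0.485). When lines 26 and 10 were left out, whose WND1A lay farthest from the median, r was 0.80 over the remaining lines and 0.59 over the remaining trees.

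The relation of WND1A and WND2A rested on lines 3, 10 and 26, which were the lowest 3 lines at both loci. These are also the lines with the highest shares of reads on the chromosome 5 stretch, 12.99% to 18.7%, against 1.14% to 7.55% in the other 6 lines. Wild-type trees 1 and 3, with shares of 18.9% and 16.0%, had 96.0 and 95.2 CPM of WND1A and 9.57 and 10.9 CPM of WND2A. Within the 6 lines of lower share r was 0.32 and rho 0.31 (exact permutation p = 0.529 and 0.564). Within the 6 trees of low share r was 0.18 and within the 6 of high share 0.81 (exact permutation p = 0.771 and 0.0778), and the partial r over the 9 lines given the share was 0.68 (permutation p = 0.0408). The part of the chromosome 5 reads in this relation was not tested further.

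Among these loci, WND1A and WND2A had their highest r over the 9 lines with each other, not with their own copies. WND1B and WND2B had theirs with their own copies, WND1A and WND2A. Over the 9 lines WND1A and WND1B had r = 0.36 and rho = 0.17 (exact permutation p = 0.340 and 0.678), and WND2A and WND2B had r = 0.61 and rho = 0.43 (exact permutation p = 0.0780 and 0.250; adjusted over the 6 r values 0.627 and 0.234, over the 6 rho values 0.810 and 0.750). Without the 2 lines farthest from the median the r of the WND1 pair was 0.22 and that of the WND2 pair -0.24, so the r of the WND2 pair rested on lines 10 and 3. The other 3 combinations had r from -0.19 to 0.24 (adjusted exact permutation p = 0.627 for each). When 23876 loci with a mean of at least 1 CPM were ranked by r with WND1A over the 12 trees, WND2A was at place 366 and WND1B at place 10299. Ranked by r with WND2B, WND2A was at place 3821.

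Library size moved with WND1A. Over the 9 lines, log2 CPM of WND1A had r = -0.84 with the log2 library total (exact permutation p = 0.00253, adjusted over the 4 loci 0.0101; rho = -0.83, exact permutation p = 0.00827, adjusted p = 0.0331), and r was -0.67 without lines 5 and 26, the smallest and largest libraries. The r with library total was -0.65 for WND1B, -0.61 for WND2A and -0.06 for WND2B (adjusted exact permutation p = 0.115, 0.115 and 0.874). With the share of reads on the chromosome 5 stretch, r was -0.70 for WND1A, -0.63 for WND1B, -0.76 for WND2A and -0.43 for WND2B (adjusted exact permutation p from 0.0813 to 0.253). The part of library size and of this share in the differences between lines was not tested.

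**Figure D3:**
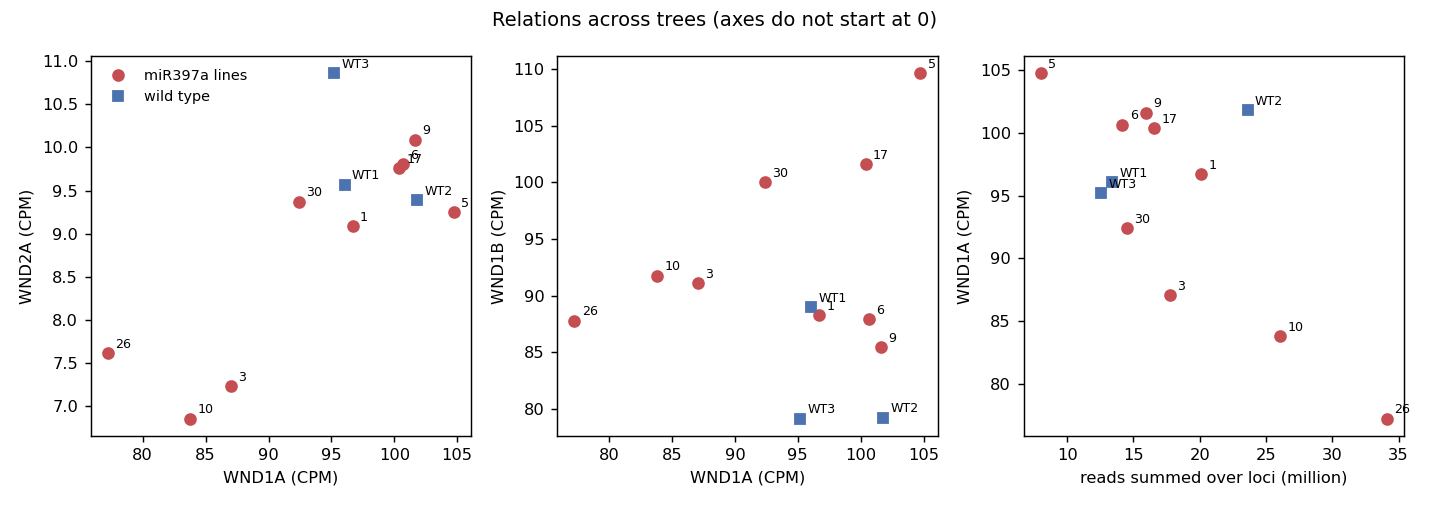
Levels of the loci across trees, with WND2A against WND1A, WND1B against WND1A, and WND1A against the reads of the library (CPM is TMM-scaled; axes do not start at 0; circles are miR397a lines, squares wild type). Lines 3, 10 and 26 are low at WND1A and WND2A together, WND1B does not follow WND1A, and the highest WND1A level, 105 CPM, is in the smallest library, line 5.

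The loci whose pattern over the 12 trees was most like each member were found by Pearson r of log2 CPM among 23873 loci with a mean of at least 1 CPM. They were chosen as the highest of that number, have no gene name in the file, and share the library and its scaling with the member. For WND1A these were Potri.018G107500, Potri.007G007700 and Potri.003G015800, with r of 0.93, 0.92 and 0.92. For WND1B they were Potri.005G123800, Potri.017G042900 and Potri.002G096900, with r of 0.96, 0.96 and 0.95. For WND2A they were Potri.008G172700, Potri.001G417400 and Potri.011G024100, with r of 0.94, 0.93 and 0.92. For WND2B they were Potri.016G114700, Potri.015G106200 and Potri.009G111700, with r of 0.91, 0.90 and 0.89.

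Other genes of the wall pathway were taken from lists of locus identifiers written from knowledge of the poplar genome. Neither the file nor the reference table annotates these loci, so the counts that follow describe the lists as written, with no locus named. The lists held 44 loci, of which 43 were tested, and 0 were called with edgeR, limma-voom or DESeq2. An unadjusted edgeR p below 0.05 was found at 4 of the 43, all higher in the lines. Of all tested loci, 11.0% had such a p in either direction.

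Of the regulators, the vessel NAC list (VND type, relatives of the 4 loci that act chiefly in water-conducting cells) had 8 loci, 7 of them tested. Its log2 fold changes had a median of 0.14 and ran from -0.05 to 0.69, with 6 above and 1 below 0 (smallest edgeR adjusted p = 0.510). The secondary wall MYB list, factors directly downstream of the WND proteins, had 4 loci with a median of -0.02 and a range of -0.14 to 0.10 (smallest edgeR adjusted p = 0.665). Over all tested loci the median was -0.00016.

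The summed level of the 4 SND1/NST type loci was set against both regulator lists within each tree. Its ratio to the summed CPM of the vessel NAC list was 1.81, 2.004 and 2.43 as the lowest, median and highest value in the lines, against 2.24, 2.12 and 2.296 in wild-type trees 1, 2 and 3. In 7 lines it stood below every wild-type tree and in line 1 above them all, and the log2 difference was -0.13 (95% interval -0.32 to 0.065; exact permutation test, two-sided, p = 0.168). Of the 12 values with 1 tree left out, 1 had an exact permutation p under 0.05, that without line 1 (log2 difference -0.16, p = 0.0424, not adjusted), and the others had p from 0.103 to 0.364. The ratio to the MYB list was 2.58 to 3.53 in the lines, against 3.02, 3.22 and 3.14 in wild-type trees 1, 2 and 3, a log2 difference of -0.022 (95% interval -0.25 to 0.20; exact permutation test, two-sided, p = 0.859). Sums follow the loci with most reads. In the lines 1 vessel NAC locus averaged 61.6 CPM and 1 MYB locus 47.9 CPM, with at most 12.7 and 9.87 CPM for others of their lists. WND1A and WND1B likewise made up most of the sum of the 4 loci. With means of log2 values in place of sums, the log2 differences were -0.19 and -0.0084 (exact permutation p = 0.0955 and 0.955, not adjusted).

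Of the enzymes further down, the 5 secondary wall cellulose synthase loci had log2 fold changes of 0.11 to 0.25 (median 0.21), with 1 at an unadjusted edgeR p below 0.05. The 5 loci listed as xylan glycosyltransferases, which build the main hemicellulose of wood, ran from -0.07 to 0.19 (median 0.06). The 22 loci listed as monolignol enzymes, which make the lignin precursors, ran from -0.01 to 0.33 (median 0.18), with 21 above 0, against 49.9% of all tested loci. Of the 22, 3 had an unadjusted edgeR p below 0.05. The share of all tested loci with such a p, in either direction, was 11.0%. Loci of a list vary together from tree to tree, so these counts are not of independent loci, and none of the loci passed the test (smallest edgeR adjusted p = 0.389).

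**Figure D4:**
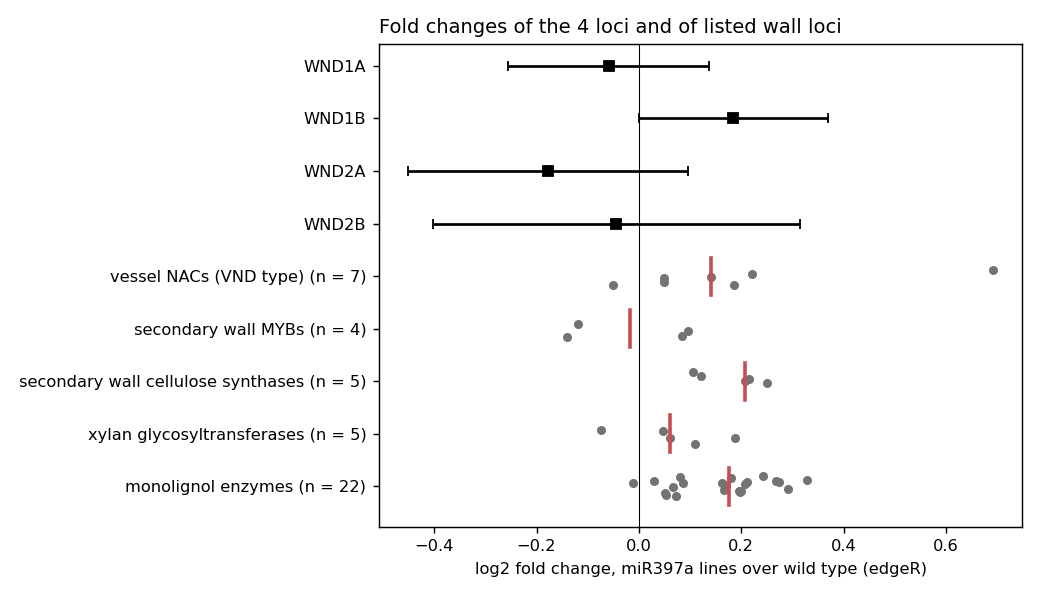
Log2 fold change of miR397a lines over wild type (edgeR). Squares are the 4 SND1/NST type loci with 95% intervals; grey points are the loci of the 5 lists written from knowledge of the poplar genome, and red bars their medians, from -0.02 for the MYB list to 0.21 for the cellulose synthase list.

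Over the 9 lines the summed level of the 4 loci had no relation to the listed genes that passed the test. Its r was 0.55 with the vessel NAC list, -0.31 with the MYB list, 0.06 with cellulose synthases, 0.18 with xylan glycosyltransferases and -0.38 with monolignol enzymes (exact permutation p from 0.131 to 0.883, adjusted over 5 relations from 0.653 to 0.883). The corresponding Spearman rho values were 0.67, -0.43, 0.13, 0.28 and -0.40 (exact permutation p from 0.0589 to 0.744, adjusted p from 0.294 to 0.744). When lines 26 and 5 were left out, whose summed level lay farthest from the median, the r values in the same order were 0.65, -0.48, -0.05, 0.18 and -0.47. Over all 12 trees the vessel NAC list had r = 0.57 (permutation p = 0.0536, adjusted p = 0.268). Its rho was 0.69 (permutation p = 0.0164, adjusted p = 0.0819). For the other lists r ran from -0.23 to 0.22 over the 12 trees (adjusted permutation p = 0.725 for each).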

How the data were processed

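The authors deposited 1 table of raw read counts per transcript model (73013 models, 1 column per tree). The submitters' processing notes list bedtools 2.14.2, Bowtie, TopHat and TopHat2 2.0.3. No source used here gives the build, the annotation or the treatment of multiply aligned reads. Each locus was represented by its model with the most reads. Loci passing filterByExpr (minimum count 10) were scaled by TMM and tested with edgeR 4.0.16 (R 4.3.3; robust quasi-likelihood, 2 groups, Benjamini-Hochberg over 26298 loci, threshold 0.05). SE is the size of the log2 fold change over the square root of F. The test was checked on simulated data. Sums and ratios (0.5 added to reads) were tested by exact permutation, and correlations used a prior count of 2, with exact permutation over 9 lines or 100000 permutations over 12 trees (the 95% intervals invert the exact tests).

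Members and lists were chosen with earlier results of these data known. Alternatives were other scalings, filters, transcript models, DESeq2 1.42.0, limma-voom (limma 3.58.1), the chromosome 5 share and leaving out each tree. Named were the 4 loci and, for each, the 3 loci with the highest r. Of the identifiers, 0 matched the reference table (assembly P.trichocarpa_v4.1), so sequences, per-length levels and markers were not used here. Counting errors given cover read sampling only.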

Additional observations from a re-analysis of the deposited data

How the results depend on the processing

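In 25 alternative fits, 0 of the 4 loci and 0 of the listed wall loci were called, with edgeR, DESeq2 or limma-voom. The smallest adjusted p over these fits was 0.208 for WND1B, 0.235 for WND2A, 0.372 for WND1A and 0.777 for WND2B. The count of all loci called (24 with edgeR) was 131 with DESeq2, 119 with sample quality weights and 46 with the chromosome 5 share as covariate. It was 16 to 65 when 1 tree was left out, the 65 without line 1. With all models as rows, 52 of 55411 transcript models were called, a count of models and not of loci. With library totals as scaling the log2 fold change was 0.032 for WND1A and 0.047 for WND2B, and the mean of log2 values in place of the sum gave -0.033 for the 4 loci together. Leaving out 1 tree gave -0.14 to 0.042 for WND2B (above 0 at 0.024 without line 10 and 0.042 without wild-type tree 1), -0.31 to -0.19 for the WND1A to WND1B ratio, -0.24 to 0.049 for the WND2A to WND2B ratio (above 0 without wild-type tree 3), -0.16 to -0.10 for the ratio to the vessel NAC list, -0.048 to 0.010 for that to the MYB list (above 0 without line 3, line 26 or wild-type tree 2) and -0.0041 to 0.041 for the WND2B models (below 0 without wild-type tree 1). The cause was not tested.

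Correlations depended on the scaling and on the trees included. With library totals, which leave a shared factor in all loci of a tree, r rose to between 0.66 and 0.97 for the 6 combinations of loci, WND1B and WND2B included (0.66), and to 0.90 and 0.81 for the MYB and monolignol lists. Given the chromosome 5 share, partial r was -0.13 for WND1A and WND1B, -0.090 for WND1A and WND2B and -0.56 for WND1B and WND2A, and -0.049, 0.42, -0.23 and -0.30 for the vessel NAC, MYB, cellulose synthase and xylan lists. Given the library total, a choice made after the data were seen, it was -0.44 for WND1A and WND1B and -0.33 for WND1B and WND2A. It was 0.78 for WND1A and WND2A and 0.72 for WND2A and WND2B (permutation p = 0.0207 and 0.0246, not adjusted). For WND1A and WND2B it was 0.35 and for WND1B and WND2B -0.30. In the 6 trees of low share, signs turned for WND1A and WND2B (-0.74), WND1B and WND2A (-0.011), WND2A and WND2B (-0.26), and the MYB (0.49) and monolignol (0.55) lists. In the 6 of high share they turned for WND1A and WND1B (-0.46), WND1B and WND2A (-0.83), and the cellulose synthase (-0.88) and xylan (-0.78) lists. Without the 2 lines farthest from the median they turned for WND1B and WND2A (-0.13), WND2A and WND2B (-0.24) and the cellulose synthase list (-0.051). No paired analysis was possible because line numbers name transformants and wild-type numbers only count trees.

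WND2A and WND2B had 81 to 320 reads per tree. Changes within their intervals of the fold change, 0.732 to 1.07 for WND2A and 0.756 to 1.24 for WND2B, are not excluded. Their coefficients of variation between the lines, 13.8% and 19.1%, were larger than their counting errors at the median count, 8.03% and 7.39%. The smallest change that could be detected was not tested.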

Other observations

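The loci called lower in the lines outside chromosome 3, 15 in number, were picked by the comparison of lines with wild type in these same trees. Whether their summed level measures how far a line differed from wild type was not tested, so no conclusion is drawn from it. Across the 9 lines the level of the SND1/NST type loci was set against the summed level of these 15. The r was 0.06 for WND1A, 0.23 for WND1B, 0.16 for WND2A and 0.41 for WND2B (exact permutation p from 0.270 to 0.877, adjusted over 4 relations 0.877 for each). The rho values were -0.07, 0.17, 0.017 and 0.47 (exact permutation p from 0.213 to 0.982, adjusted from 0.850 to 0.982). When lines 6 and 1 were left out, whose sum lay farthest from the median, r was 0.37, 0.36, 0.63 and 0.76. These relations were chosen after the data were seen.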
